A study of Mus musculus with 21 samples.

Results

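Dendritic cells (DCs) of the mouse spleen of the subset named for the DEC205 antibody were compared with CD4 and CD8 T cells of the same organ. The members are the 3 arrays titled DEC205_WT against the 6 titled CD4_T_cells or CD8_T_cells, 9 of the 21 arrays of the series, and each difference sets DEC205 DCs against the average of the CD4 and CD8 groups, on a log2 scale and positive where DEC205 DCs were higher. All 9 arrays held total RNA of cells purified from the spleens of wild-type C57BL/6 mice, and the labels name no treatment, age or sort gate for them. Each array was a pool of 40 to 80 mice for the DCs and of 5 to 8 mice for the T cells. The series also holds 33D1 DCs and B cells of wild-type mice, and 33D1 and DEC205 DCs of mice that were injected with Flt3L melanoma and killed on days 10 to 12, in pools of 20. Those 12 arrays entered the same model and serve here to place the DEC205 genes. The description field of the lymphocyte samples calls them DCs, and their identity was therefore checked on lineage genes. Of 45101 probe sets, 23946 carried exactly 1 gene symbol and passed a filter on low signals, and they gave 13284 genes.

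DCs take up antigen, cut it into peptides and show these to T cells on major histocompatibility complex (MHC) molecules. The DEC205 antibody, which recognises the uptake receptor encoded by Ly75, marks the CD8-positive subset of splenic DCs, known for presenting captured antigen on MHC class I and for its need of the transcription factors Irf8 and Batf3. T cells read those peptides through a receptor whose signal runs over the CD3 chains, the kinase Zap70 and the adaptor Lat. Both cell kinds can carry the surface protein CD8, as a pair of alpha chains on DCs and mostly as an alpha and beta chain on CD8 T cells.

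Promoter sequences of 4 genes that the results turn on are shown here, from 250 bases before to 50 bases after the start site, as RefSeq gives them on GRCm38.p6. Cd8a had high signals in DEC205 DCs and CD8 T cells, Cxcr3 in DEC205 DCs and T cells, Xcr1 in DEC205 DCs and Cd3d in T cells. Capitals mark matches, on either strand, to 5 motifs that were searched: GGAA, any 2 bases and GAAA, a PU.1 and IRF composite, GAAA, any 2 bases and GAAA, the core of an interferon response element, GAGGAAGT, a PU.1 box, CTTTGAT, the core bound by TCF and LEF factors, and TGTGGTT, a RUNX site.
Cd8a (chr6:71373177-71373476, plus strand): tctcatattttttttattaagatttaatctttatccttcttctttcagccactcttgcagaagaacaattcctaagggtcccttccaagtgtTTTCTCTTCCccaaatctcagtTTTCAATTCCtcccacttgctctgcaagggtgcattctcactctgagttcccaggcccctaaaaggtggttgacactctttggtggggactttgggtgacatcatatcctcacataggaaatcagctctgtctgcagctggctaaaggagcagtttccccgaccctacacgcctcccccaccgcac
Cxcr3 (chrX:101734098-101734397, minus strand): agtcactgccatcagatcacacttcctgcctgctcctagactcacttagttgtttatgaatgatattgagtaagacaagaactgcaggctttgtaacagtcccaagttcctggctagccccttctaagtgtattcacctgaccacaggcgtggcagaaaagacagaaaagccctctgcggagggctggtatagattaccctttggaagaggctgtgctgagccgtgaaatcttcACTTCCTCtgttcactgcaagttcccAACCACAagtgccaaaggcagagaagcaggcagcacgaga
Xcr1 (chr9:123861980-123862279, minus strand): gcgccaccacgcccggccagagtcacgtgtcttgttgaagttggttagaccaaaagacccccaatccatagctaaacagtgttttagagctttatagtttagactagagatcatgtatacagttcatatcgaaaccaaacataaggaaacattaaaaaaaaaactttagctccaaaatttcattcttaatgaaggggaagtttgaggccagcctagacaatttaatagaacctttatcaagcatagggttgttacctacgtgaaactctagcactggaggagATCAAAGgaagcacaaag
Cd3d (chr9:44981536-44981835, plus strand): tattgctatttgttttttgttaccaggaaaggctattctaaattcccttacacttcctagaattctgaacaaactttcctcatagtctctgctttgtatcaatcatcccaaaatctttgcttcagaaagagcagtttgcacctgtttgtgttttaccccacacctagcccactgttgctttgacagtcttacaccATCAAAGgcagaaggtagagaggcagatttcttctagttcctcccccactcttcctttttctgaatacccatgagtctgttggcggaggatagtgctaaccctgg
The Cd8a window held 2 matches to the PU.1 and IRF composite, both on the minus strand. The Cxcr3 window held 1 PU.1 box and 1 RUNX site, and the windows of Xcr1 and Cd3d held 1 TCF and LEF core each. Each motif was counted in all 27025 RefSeq promoters, in those of 10701 genes tested, and in those of 506 genes at least 4-fold higher and 325 at least 4-fold lower in DEC205 DCs. In this order the composite stood in 2.79%, 2.55%, 2.77% and 3.08%, and the interferon response core in 3.49%, 2.99%, 3.75% and 5.23%. The PU.1 box stood in 3.28%, 3.14%, 5.73% and 5.85%, the TCF and LEF core in 3.72%, 2.65%, 3.36% and 3.69%, and the RUNX site in 5.37%, 3.71%, 3.75% and 5.23%. The composite shares GGAA with the PU.1 box and its last 4 letters with the interferon core, and matches can overlap. Each match is a description of letters.

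The 4 genes that mark the cell kinds separated the arrays. Irf8, a transcription factor of the CD8-positive DC lineage, gave signals of 22700, 26770 and 24720 on the DEC205 arrays and of 213 to 365.2 (median 258.6) on the T cell arrays, a log2 difference of 6.27 ± 0.37 (standard error, SE; limma, adjusted p = 2.35e-12). Xcr1, the receptor for the chemokine XCL1, gave 11650, 12870 and 12190 in DEC205 DCs and 54.5 to 295.1 (median 160.1) in T cells, a difference of 5.90 ± 0.37 (limma, adjusted p = 7.53e-12). In both genes every DEC205 array lay far above every T cell array. Cd3d, a chain of the T cell receptor complex, gave 23.7, 19 and 13.4 in DEC205 DCs and 21420 to 26360 (median 24540) in T cells, a difference of -8.50 ± 0.13 (limma, adjusted p = 4.84e-22). Cd3e, another such chain, gave 21.7, 35.7 and 46.7 and 6487 to 8817 (median 8225), a difference of -6.58 ± 0.21 (limma, adjusted p = 9.46e-17). Here every DEC205 array lay far below the T cells. Cd4 had signals of 6413, 6734 and 6006 in CD4 T cells and 36.2, 39.6 and 28 in CD8 T cells, and Cd8b1, the CD8 beta chain, 411, 578.8 and 499.3 and 25160, 25390 and 24010, so the T cell arrays followed their titles.

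Signals are linear MAS5 intensities that had been scaled to a trimmed mean of 500 on every array. Array medians lay between 131.4 and 168.1 for DEC205 DCs and between 131.7 and 204.4 for T cells, and differences of signals below the offset of 48.6, the 25th percentile of the table, are understated by it. Log2 values of DEC205 and T cell arrays correlated across genes with r from 0.712 to 0.752, against 0.874 to 0.912 for DEC205 and 33D1 arrays and 0.931 to 0.963 for CD4 and CD8 T cell arrays, which describes the arrays since genes are not independent. The third DEC205 array stood apart in genes of 33D1 DCs: Sirpa, an inhibitory receptor of CD8-negative DCs, gave 277.3, 230.8 and 665.9 and Cd4 133.1, 57.7 and 400 on the 3 arrays, against a mean of 10400 and 2456 in 33D1 DCs. The summed signal of 15 CD8-negative DC markers ran from 3871 to 11230 over the DEC205 arrays and from 124500 to 134100 over the 33D1 arrays.

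**Figure D1:**
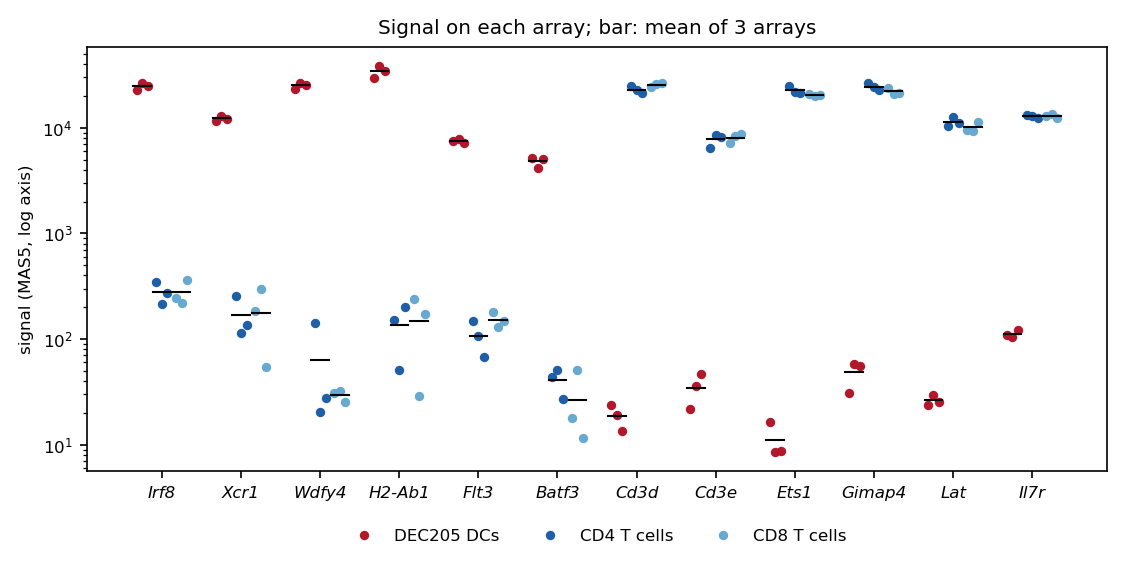
Signal of 12 genes on each of the 9 arrays (vertical axis, MAS5 signal, log scale), with DEC205 DCs in red, CD4 T cells in dark blue and CD8 T cells in light blue, and a black bar at the mean of 3 arrays. In Irf8, Xcr1, Wdfy4, H2-Ab1, Flt3 and Batf3 the 3 DEC205 arrays lie above all 6 T cell arrays, and in Cd3d, Cd3e, Ets1, Gimap4, Lat and Il7r below them.

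DEC205 DCs and T cells differed over much of the transcriptome. Of 13284 genes, 2881 were called higher in DEC205 DCs (21.7%) and 3649 lower (27.5%), 49.2% in all, at a limma adjusted p under 0.05. The counts of each gene list below are to be read beside these shares of 21.7% and 27.5%. At least 2-fold differences were called in 1456 genes higher and 1332 lower, 4-fold in 617 and 422, and 16-fold in 165 and 102. Large differences were therefore more often higher in the DCs, while small ones were more often lower. The median difference of all genes was -0.16, and with each array centred on its own median it was 0.05 and the split was 3237 higher and 2058 lower. All 3 DEC205 arrays lay above all 6 T cell arrays in 2530 genes (19%) and below them in 2935 (22.1%). Tested against each T cell group on its own, 2309 genes were higher than in both (17.4%) and 2631 lower than in both (19.8%), 1402 with median centring. Among the highest differences outside the lists described next were Mpeg1, a pore-forming protein of phagocytes (8.15 ± 0.23), Treml4, a receptor for dying cells on CD8-positive DCs (6.85 ± 0.19), the signalling adaptor Tyrobp (6.32 ± 0.12) and Ly86, the partner of the receptor CD180 (6.37 ± 0.28). Without the third DEC205 array 2585 genes were called higher and 3097 lower. In these bulk samples fewer cells of a kind and less RNA per cell cannot be told apart.

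**Figure D2:**
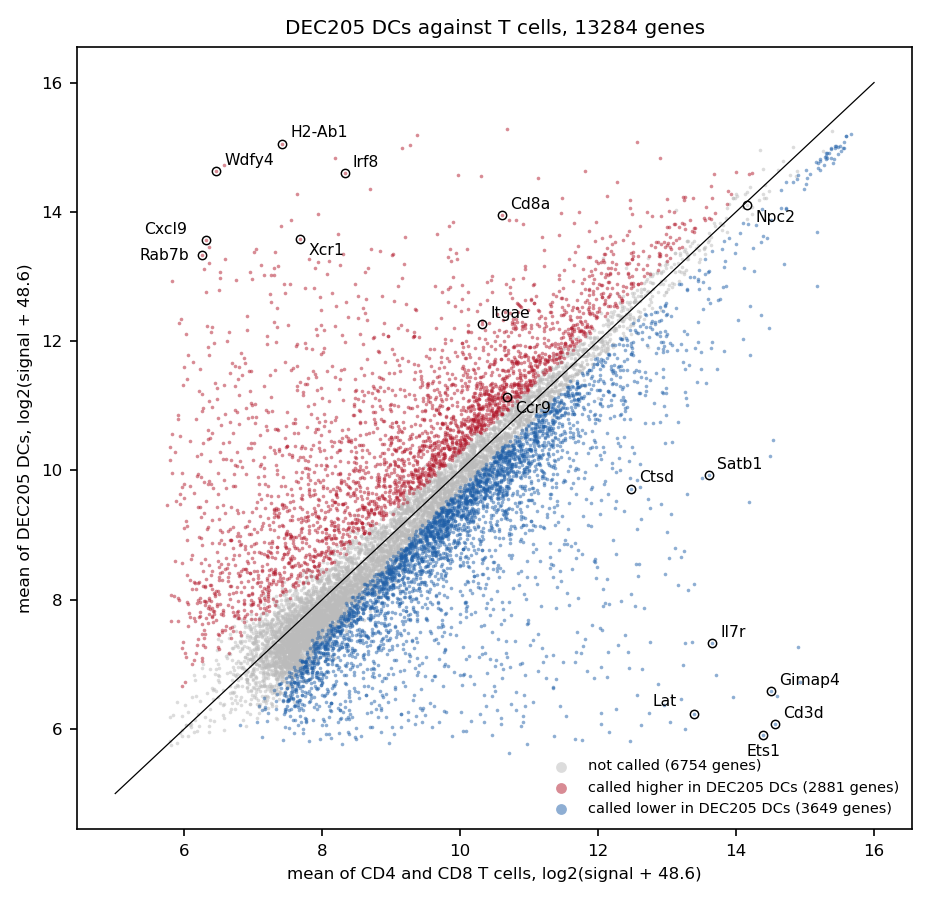
Mean log2(signal + 48.6) of 13284 genes in DEC205 DCs (vertical axis) against the mean of CD4 and CD8 T cells (horizontal axis), with the line of equal values. Red marks the 2881 genes called higher in DEC205 DCs, blue the 3649 called lower, and circles name genes of the text, with Wdfy4 and H2-Ab1 at the top left and Ets1 and Cd3d at the bottom right.

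Genes of the T cell receptor had low signals in DEC205 DCs and high ones in T cells. Of 22 tested genes of the T cell receptor complex and its first signalling steps, 21 were called lower and 0 higher, with a median difference of -4.40 beside -0.16 for all genes. Lat, the membrane adaptor that gathers the signalling enzymes, gave 24, 29.7 and 25.4 in DEC205 DCs and 9385 to 12750 (median 10750) in T cells (-7.17 ± 0.16, limma, adjusted p = 2.92e-19). Zap70, the kinase that binds the activated receptor, gave 70, 46.6 and 75 and 3852 to 5410 (median 4295), a difference of -5.32 ± 0.20. Prkcq, the protein kinase C of the T cell contact zone, gave 15.9, 27.7 and 12.6 and 4892 to 7438 (median 6430), a difference of -6.55 ± 0.17. None of these DEC205 arrays reached a T cell array. The receptor chains Cd3g and Cd247 differed by -7.47 ± 0.24 and -5.41 ± 0.20, and Rasgrp1, which activates Ras after receptor contact, by -6.04 ± 0.20. Other members were lower by less. Lcp2, an adaptor downstream of Zap70, gave 2812, 2712 and 3179 in DEC205 DCs and 4842 to 6804 (median 6077) in T cells, a difference of -1.0 ± 0.12 (limma, adjusted p = 2.29e-07). Ptpn22, a phosphatase that damps receptor signals, differed by -1.05 ± 0.12, the kinase Fyn by -1.46 ± 0.12 and the phospholipase Plcg1 by -1.84 ± 0.11. Vav1, an exchange factor, was the member not called (0.26 ± 0.11, limma, adjusted p = 0.0611). It was called higher without the second DEC205 array (0.40) or the third CD4 array (0.31), and with probe sets averaged (0.28).

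Receptor gene segments were among the deepest differences. The probe set of Trbv1, a beta chain variable segment, gave 65.6, 22.8 and 44 in DEC205 DCs and 21410 to 29720 (median 23610) in T cells (-8.08 ± 0.21, limma, adjusted p = 3.16e-18). That of Trav9d-3, an alpha chain segment with near-identical copies, gave 116.4, 81.9 and 122.5 and 27310 to 32590 (median 30640), a difference of -7.62 ± 0.19. Probe sets of such segments can read transcripts of other segments, and the signal stands for the receptor chains as a group.

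All 16 tested T cell surface molecules were called lower than the T cell mean, with a median of -4.89, and 15 without the first or the third DEC205 array. Among them Cd4 (-1.83) was called in opposite directions against the 2 T cell groups. Its means were 196.9 in DEC205 DCs, 6384 in CD4 and 34.6 in CD8 T cells. Il7r, the receptor for the survival cytokine IL-7, gave 109.3, 104 and 123 in DEC205 DCs and 12270 to 13530 (median 12890) in T cells, a difference of -6.33 ± 0.14 (limma, adjusted p = 2.51e-19). Thy1 differed by -6.87 ± 0.26, Cd2 by -6.74 ± 0.23, the costimulatory receptor Cd28 by -5.79 ± 0.23 and Cd27 by -5.35 ± 0.23. Cd5, a damper of receptor signals, was measured on every DEC205 array, at 335.1, 316.2 and 334.1 against 3671 to 9342 (median 6730) (-4.04 ± 0.13). Tnfrsf4 (OX40) had the smallest difference, -0.64 ± 0.17 (limma, adjusted p = 0.00364), and its arrays overlapped, at 711.2, 861.7 and 797.2 in DEC205 DCs, 3184, 1684 and 1648 in CD4 and 768.2, 828.5 and 678.6 in CD8 T cells.

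T lineage transcription factors had a median of -2.51, with 15 of 18 tested called lower and 2 called higher. Ets1 had, with Cd3d, the lowest difference of the main comparison among genes without array overlap, at 16.3, 8.5 and 8.7 in DEC205 DCs and 19960 to 25030 (median 21080) in T cells (-8.50 ± 0.14, limma, adjusted p = 3.14e-21). Bcl11b, which keeps T cells in their lineage, gave 8.8, 20.8 and 60.5 and 5193 to 8498 (median 7060), a difference of -6.50 ± 0.24. Lef1 gave 113.3, 100.9 and 122.5 and 7732 to 11760 (median 9841), a difference of -5.93 ± 0.14. The DEC205 arrays of all 3 genes were far below the T cells. Stat4, which carries the IL-12 signal, differed by -5.81 ± 0.13, with a mean signal of 960.7 in 33D1 DCs and 9.1, 8.2 and 9.6 on the DEC205 arrays. Gata3, which T cells need from their origin on, differed by -2.91 ± 0.25, Tbx21 (T-bet) by -1.78 ± 0.39 and Eomes, a factor of memory CD8 T cells, by -2.25 ± 0.25. Satb1, a chromatin organiser, was lower too, at 995.6, 869.4 and 908.7 against 11650 to 13870 (median 12060) (-3.68 ± 0.11). Zbtb7b (ThPOK), which sets the CD4 fate, and Runx1 were called higher than the T cell mean, and both lay within the span of the T cell arrays or overlapped it. Runx1 gave 1198, 721.3 and 736.5 in DEC205 DCs and 255.5 to 1120 (median 637.2) in T cells, differed by 0.56 ± 0.19 (limma, adjusted p = 0.0203) and was not called without the first DEC205 array (0.33) or with probe sets averaged (0.15). Runx3, the CD8 fate factor, was the member not called, at 1018, 798 and 1288 in DEC205 DCs, 594.5, 869.6 and 1048 in CD4 and 1193, 1086 and 1431 in CD8 T cells.

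GTPases of the GIMAP family, which support lymphocyte survival, were all lower. The 8 tested members had a median difference of -5.95 and ranged from -7.92 to -3.99. Gimap4 gave 31.1, 58.1 and 56 in DEC205 DCs and 20950 to 26470 (median 23240) in T cells (-7.92 ± 0.21, limma, adjusted p = 6.17e-18), and Gimap6 15.2, 22.6 and 9.5 and 6649 to 14710 (median 10610) (-7.26 ± 0.21). Gimap4 was also high in B cells, with a mean of 14380. Of 15 genes of lymphocyte quiescence and homing 14 were lower, 13 without the third DEC205 or the second CD4 array, with a median of -1.69. Btg2 was not called (0.56 ± 0.25, limma, adjusted p = 0.0723). It was called higher without the second CD4 array (0.64) or the third CD8 array (0.63). The same held with probe sets averaged (0.77), with median centring (0.76) and with only the 9 arrays fitted (0.56). S1pr1, the receptor by which lymphocytes leave lymphoid organs, gave 174.2, 234.3 and 204 in DEC205 DCs and 4133 to 5906 (median 5259) in T cells (-4.36 ± 0.13). Klf2, which drives S1pr1, was lower by less and kept a clear signal, at 2354, 1864 and 3874 against 8768 to 15750 (median 12730) (-2.21 ± 0.28). Foxo1 differed by -1.77 ± 0.14 and Foxp1 by -2.70 ± 0.12. Ms4a4b, a membrane protein of T cells, gave 47.9, 45.5 and 83.2 and 28780 to 35000 (median 31460), a difference of -8.20 ± 0.12.

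Transcription factors of DCs ran the other way. Of 18 tested, 15 were called higher and 0 lower, with a median of 2.11, and 12 were higher without the third DEC205 array. Batf3 gave 5192, 4164 and 5033 in DEC205 DCs and 11.6 to 50.6 (median 35.65) in T cells (5.90 ± 0.21, limma, adjusted p = 4.67e-16). Mycl, a Myc relative used by CD8-positive DCs, gave 4688, 4077 and 4350 and 11.3 to 22 (median 16.8), a difference of 6.08 ± 0.13. Zbtb46, a factor of conventional DCs, gave 3840, 2586 and 2488 and 26.1 to 115.6 (median 85.3), a difference of 4.59 ± 0.21. No T cell array came near the DEC205 arrays in these 3 genes. Spi1, which encodes PU.1, differed by 4.01 ± 0.13, Irf5 by 4.49 ± 0.14 and Bcl11a by 4.70 ± 0.23. Id2, which T cells also express, gave 15160, 17890 and 15800 in DEC205 DCs and 2294 to 4505 (median 3658) in T cells, a difference of 2.27 ± 0.19.

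Not every DC factor was called. Irf4, a factor of CD8-negative DCs, gave 28.9, 108.1 and 151.9 in DEC205 DCs, 219.6, 129.5 and 485.9 in CD4 and 176.1, 54.5 and 76.9 in CD8 T cells, was not called (-0.61 ± 0.33, limma, adjusted p = 0.132), and was called lower without the second CD4 array (-0.79). Spib (-0.26 ± 0.25) and Zeb2 (0.00 ± 0.25) were not called either. Klf4 was called higher (1.25 ± 0.32), with signals of 449.1, 444.3 and 1446 in DEC205 DCs, but not without the third array (0.72). Nfil3 was called higher (0.93 ± 0.34, limma, adjusted p = 0.0291), at 515.9, 207.7 and 301.7 against 66.1 to 244.4 (median 162.1), and leaving out any of 4 arrays ended the call, the first DEC205 array with the lowest value (0.63) and the third among them (0.97).

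Markers of CD8-positive DCs were called higher than the T cell mean in 19 of 19 tested genes, with a median of 5.28. Among them Cd8a (3.35) and Itgae (1.94) were not called against CD8 T cells alone, and both are described with the shared genes. Ly75, which encodes the target of the antibody, had signals in T cells too. DEC205 DCs gave 3104, 3131 and 2682, CD4 T cells 717.9, 675.3 and 1172 and CD8 T cells 989, 1500 and 1645, a difference of 1.44 ± 0.19 (limma, adjusted p = 1.06e-06) without overlap of arrays. Wdfy4, needed for presenting cell-derived antigen, had the highest difference of the comparison, at 23440, 26690 and 25640 in DEC205 DCs and 20.6 to 142.7 (median 29.1) in T cells (8.16 ± 0.21, limma, adjusted p = 1.91e-18). Rab7b, a GTPase of endosomal traffic, gave 10120, 10530 and 10020 and 10.6 to 126.9 (median 17.25), a difference of 7.07 ± 0.39. Tlr3, the sensor of double-stranded RNA, gave 9339, 9270 and 7144 and 24.9 to 151.2 (median 79.6), a difference of 6.11 ± 0.23. Naaa differed by 5.65 ± 0.17, the scavenger receptor Cd36 by 6.82 ± 0.29 and Cd24a by 6.38 ± 0.19. Genes of DCs in general were higher in 13 of 15, with a median of 4.65. The cytokine receptor Flt3 gave 7446, 7846 and 7197 in DEC205 DCs and 67.2 to 179.9 (median 138.2) in T cells (5.43 ± 0.14), Itgax, which encodes CD11c, differed by 5.42 ± 0.27, and Csf2ra, a chain of the GM-CSF receptor, by 4.94 ± 0.13. Ccr7, the receptor that guides migratory DCs and naive T cells to lymph nodes, was the 1 member lower. Traf1 was not called (0.28 ± 0.21), but was called higher with probe sets averaged (0.40). Ccr7 gave 1668, 701 and 1932 in DEC205 DCs and 6518 to 9770 (median 8050) in T cells (-2.55 ± 0.29, limma, adjusted p = 1.32e-07). Markers of CD8-negative DCs were mixed, with 5 of 15 higher, 3 lower and a median of 0.08. The shares were 33.3% higher and 20% lower, beside 21.7% and 27.5% of all genes. Tgm2, a transglutaminase, gave 254.9, 319.5 and 1413 in DEC205 DCs and 22 to 170.2 (median 99.45) in T cells (1.98 ± 0.32), and Sirpa, Esam, Bex6 and Csf1r were the other higher members (0.90 ± 0.30, 1.49 ± 0.17, 1.22 ± 0.28 and 1.63 ± 0.21). The lower members were Dtx1, Ltb and Cd7 (-4.0 ± 0.28, -4.26 ± 0.18 and -3.34 ± 0.37). Without the third DEC205 array 4 were higher and 5 lower, with a median of -0.39, and Sirpa was not called (0.49). Sirpa was also not called with probe sets averaged (0.26). The third array was the high one for Tgm2, and without it Tgm2 differed by 1.27, Bex6 by 0.71, Dtx1 by -4.60 and Cd7 by -4.15. Without the second array Cd7 differed by -2.59.

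The genes far above T cells were then set beside 33D1 DCs and B cells. Of the 617 genes at least 4-fold above T cells, 302 were also above 33D1 DCs (48.9%, beside 11.8% of all genes), 535 above B cells (86.7%, beside 18.3%) and 289 above both (46.8%, beside 7.8%). These comparisons share the DEC205 arrays, and the shares are a description. In 117 genes the difference was at least 4-fold over T cells, 33D1 DCs and B cells. The highest of these were Rab7b, Pdia5, Xcr1, Olfm1 and Hk3 by their smallest difference. Pdia5, a disulfide isomerase, gave 6566, 7467 and 6664 in DEC205 DCs and means of 28.6 in 33D1 DCs and 20.47 in B cells, with 11.3 to 84.9 (median 27.45) in T cells (6.45 ± 0.29). Hk3, a hexokinase of myeloid cells, gave 3770, 4536 and 3846 and means of 44 and 54.47 ± 47.1, with 24.1 to 108 (median 44.95) in T cells (5.37 ± 0.31). Cxcl9, a chemokine induced by interferon gamma, gave 11340, 11480 and 13320 and means of 282 and 25.1 ± 8.61, with 15 to 53.4 (median 26.8) in T cells (7.24 ± 0.16). All 3 genes stood apart from every other wild-type group. Tgfbi, Plbd1 and Alox5ap were above T cells by 7.10 ± 0.20, 6.66 ± 0.23 and 6.63 ± 0.14 and were not called against 33D1 DCs (0.32 ± 0.23, 0.60 ± 0.27 and 0.39 ± 0.17, limma, adjusted p = 0.381, 0.121 and 0.103). In 77 of the 617 genes 33D1 DCs were the higher DC group (12.5%, near the 11.3% of all genes). Of the 422 genes at least 4-fold below T cells, 168 were also below 33D1 DCs (39.8%, beside 11.3%) and 283 below B cells (67.1%, beside 20.7%).

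The machinery of MHC class II presentation was higher in DEC205 DCs almost throughout. Of 20 tested genes 17 were higher and 2 lower, with a median of 3.94. H2-Ab1, a class II beta chain, gave 29760, 38170 and 34750 in DEC205 DCs and 29.1 to 241 (median 162.5) in T cells (7.64 ± 0.29, limma, adjusted p = 1.54e-15). Ciita, the master regulator of these genes, gave 5078, 4246 and 4415 and 20.3 to 101 (median 83.3), a difference of 5.26 ± 0.27. Marchf1, the ubiquitin ligase that takes class II molecules off the surface, gave 4995, 4848 and 4963 and 3.2 to 49.2 (median 6.05), a difference of 6.36 ± 0.14. T cell signals of these genes were low on every array. H2-Aa differed by 5.82 ± 0.27, H2-Eb1 by 5.76 ± 0.22 and the invariant chain Cd74 by 5.81 ± 0.24. The peptide exchange factor H2-DMa differed by 3.94 ± 0.12, and its inhibitors H2-Oa and H2-Ob by 3.47 ± 0.12 and 2.53 ± 0.09, with T cell signals of up to 1686 and 1567. H2-Eb2 was not called (0.06 ± 0.28, limma, adjusted p = 0.883).

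Proteases of the endosome did not move as one. Ctsh gave 8454, 7815 and 8596 in DEC205 DCs and 73.5 to 187.7 (median 88.8) in T cells (5.76 ± 0.14, limma, adjusted p = 9.03e-19). Ctss, which trims the invariant chain in DCs, was high on all 9 arrays, at 16280, 20840 and 18540 against 8054 to 11090 (median 9895) (0.93 ± 0.11). Ctsz differed by 3.06 ± 0.13, Ctsb by 1.45 ± 0.14 and legumain, Lgmn, by 1.74 ± 0.15. Ctsd and Ctsl were the lower members. Ctsd, an aspartic protease of lysosomes, gave 765.7, 721.2 and 900.6 in DEC205 DCs, 4622, 5149 and 4836 in CD4 and 5844, 6012 and 7994 in CD8 T cells, a difference of -2.76 ± 0.12 (limma, adjusted p = 7.12e-15). Ctsl gave 218.9, 161.1 and 252.6 and 368.4 to 892.7 (median 659.8), a difference of -1.32 ± 0.22 (limma, adjusted p = 3.11e-05). In neither gene did a DEC205 array reach the lowest T cell array. Cst3, the secreted cystatin C, gave 33390, 46140 and 40740 and 1357 to 1954 (median 1596), a difference of 4.60 ± 0.13, and Ifi30, the lysosomal thiol reductase, differed by 3.95 ± 0.10. Of 21 lysosome genes 14 were higher and 2 lower, Npc1 (-0.43 ± 0.15) and Tpp1 (-0.88 ± 0.10), with a median of 0.73. Npc1 was not called without the second DEC205 (-0.35), the third DEC205 (-0.34) or the third CD4 array (-0.36). Gusb, beta-glucuronidase, gave 12980, 12950 and 12560 in DEC205 DCs and 580.7 to 997 (median 801) in T cells, with a mean of 1286 in 33D1 DCs (3.98 ± 0.11), and the saposin precursor Psap differed by 2.52 ± 0.14.

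MHC class I presentation differed in small steps, with 11 of 19 genes higher, 4 lower and a median of 0.38. The shares were 57.9% higher and 21.1% lower, beside 21.7% and 27.5% of all genes. Psmb9, an immunoproteasome subunit, gave 17210, 17120 and 16780 in DEC205 DCs and 4989 to 6830 (median 5379) in T cells (1.60 ± 0.12, limma, adjusted p = 1.32e-10). Pdia3, a chaperone of the loading complex, gave 15130, 16670 and 17300 and 4640 to 8218 (median 7193), a difference of 1.30 ± 0.12, and Calr differed by 1.16 ± 0.12. The peptide pump Tap1 gave 8186, 7536 and 7333 and 4271 to 4810 (median 4454), a difference of 0.76 ± 0.08. All DEC205 arrays were above the T cells in these genes. Psmb8 differed by 0.56 ± 0.11, Tap2 by 0.38 ± 0.10 and Canx, a chaperone of new class I chains, by 0.77 ± 0.11. The 4 lower members were H2-K1 (-0.51 ± 0.13), Nlrc5 (-0.46 ± 0.13), Erap1 (-0.39 ± 0.12) and B2m (-0.38 ± 0.15), and with each array centred on its median 0 of the 19 were lower. Without the third DEC205 array 2 were lower. H2-K1, a class I heavy chain, gave 20230, 26180 and 24600 in DEC205 DCs and 29900 to 39010 (median 33080) in T cells. Leaving out any of 5 arrays ended the call of B2m, the first DEC205 array with the smallest size (-0.23) and the third among them (-0.41). Nlrc5 was not called without the second DEC205 array (-0.34) and Erap1 not without the third (-0.33) or with probe sets averaged (-0.14). With quantile normalization H2-K1 differed by -0.14 and B2m by 0.03.

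**Figure D3:**
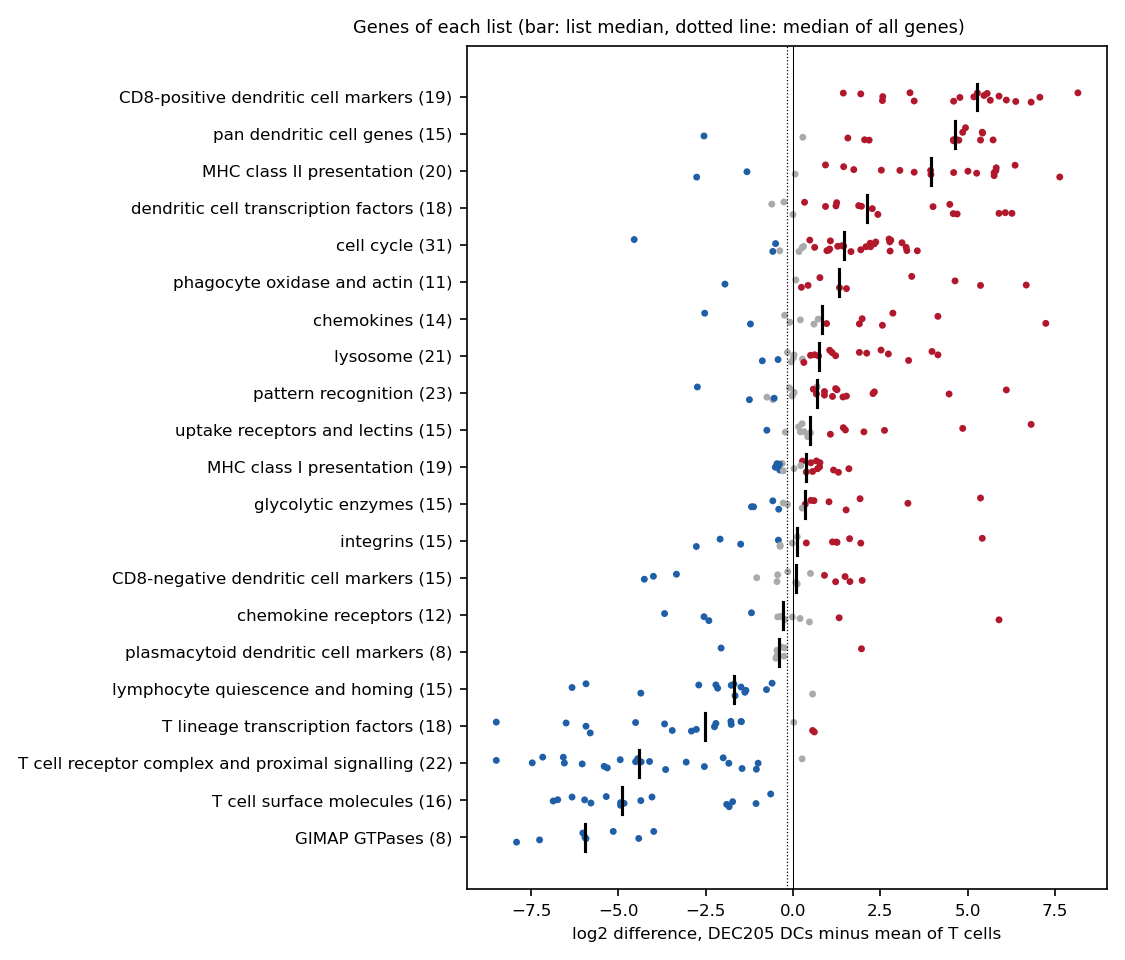
Log2 difference of each tested gene, DEC205 DCs minus the mean of T cells (horizontal axis), by gene list with the number tested, where red and blue mark genes called higher and lower and grey genes not called, and points are spread vertically for legibility. List medians run from -5.95 for GIMAP GTPases to 5.28 for markers of CD8-positive DCs, and the dotted line at -0.16 is the median of all genes.

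Sensors and uptake receptors were higher in part. Of 23 pattern recognition genes 13 were higher and 3 lower, with a median of 0.69. Without the second DEC205 or the third CD4 array 10 were higher. Unc93b1, which carries Toll-like receptors to endosomes, gave 8583, 9584 and 8754 in DEC205 DCs and 243.5 to 450.9 (median 387.4) in T cells (4.47 ± 0.12, limma, adjusted p = 8.5e-18). Tlr1 was lower, at 307.4, 172.4 and 390.9 against 1670 to 2721 (median 2127) (-2.74 ± 0.21, limma, adjusted p = 2.61e-10), and 33D1 DCs had a mean of 3847. Tlr7 and Pycard were the other lower members, by -1.25 ± 0.32 and -0.54 ± 0.11. Of 15 uptake receptors and lectins 7 were higher and 1 lower, with a median of 0.50. Fcgr2b, the inhibitory receptor for immunoglobulin G, gave 3597, 3404 and 3097 in DEC205 DCs and 20.2 to 117.6 (median 79.05) in T cells (4.86 ± 0.20), and the lipoprotein receptor Scarb1 differed by 2.62 ± 0.16. The lower member was Axl (-0.75 ± 0.24, limma, adjusted p = 0.0115), which was not called without the third DEC205 array (-0.65).

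Genes by which DCs and T cells meet were set against each other in 33 pairs, of which 28 had both members tested. In 17 pairs the DC gene was higher in DEC205 DCs and the T cell gene lower. Some genes, among them Cd28, Cd80 and Ltbr, stand in more than 1 pair, so the pairs are not separate. Of 27 DC genes 20 were higher and 1 lower, with a median of 2.56. The 26 T cell genes had a median of -2.23, with 23 called lower and 1 called higher. Of all genes 21.7% were higher and 27.5% lower. Cd86, a ligand of CD28, gave 6367, 6152 and 6710 in DEC205 DCs and 123.6 to 626.8 (median 389.8) in T cells (4.02 ± 0.20, limma, adjusted p = 1.12e-13), beside a difference of -5.79 ± 0.23 for Cd28. Cd40 gave 1648, 1800 and 1474 and 24.5 to 142.1 (median 62.55), a difference of 3.92 ± 0.21. Il12b, a chain of IL-12, gave 2040, 1368 and 2329 and 91.3 to 173.8 (median 126.8), a difference of 3.41 ± 0.28, beside -1.39 ± 0.22 for the receptor chain Il12rb1. In each of these DC genes all DEC205 arrays were above the T cells. Il15 differed by 3.05 ± 0.17 and its receptor chain Il2rb by -4.84 ± 0.27, Il18 by 3.21 ± 0.23 and Il18r1 by -3.59 ± 0.27, and Alcam by 2.90 ± 0.19 and its partner Cd6 by -5.97 ± 0.22. Icosl differed by 2.28 ± 0.18 and Icos by -1.90 ± 0.21, and Ltbr, the lymphotoxin beta receptor, by 1.47 ± 0.32 and its ligand Ltb by -4.26 ± 0.18. Cd80, the other ligand of CD28, differed by 2.68 ± 0.31 and the adhesion ligand Icam1 by 2.62 ± 0.13. The inhibitory receptor Btla, a T cell gene in the pairs, is also in the list of DCs in general, and its partner Tnfrsf14 was not tested. Against the direction of the pairs, Btla was higher in DEC205 DCs, at 13510, 15400 and 14570 against 2131 to 4464 (median 3303) (2.18 ± 0.11, limma, adjusted p = 1.17e-13). The ligand Cd274 (PD-L1) was the DC gene called lower (-0.55 ± 0.22, limma, adjusted p = 0.0465), and leaving out any of 6 arrays ended that call, the second DEC205 array with the smallest size (-0.32).

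Of 14 chemokines 7 were higher and 2 lower, with a median of 0.84, and of 12 chemokine receptors 2 were higher (16.7%) and 4 lower (33.3%), with a median of -0.29, shares near the 21.7% and 27.5% of all genes. Without the second DEC205 array 1 chemokine was lower, and without the first 1 receptor was higher. The Xcr1 ligand Xcl1 gave 5, 6.4 and 5.9 in DEC205 DCs, 233, 47.5 and 170.1 in CD4 and 391.2, 433.2 and 711.3 in CD8 T cells, a difference of -2.53 ± 0.34 (limma, adjusted p = 1.44e-06). Cxcl16, a ligand of CXCR6, gave 2582, 2506 and 3334 and 259 to 450.6 (median 344.8), a difference of 2.86 ± 0.16. Cxcr6 gave 122.7, 156.8 and 81.4 in DEC205 DCs, 2162, 264.2 and 2074 in CD4 and 3680, 4137 and 4054 in CD8 T cells, a difference of -3.68 ± 0.41. DEC205 arrays were the high ones for the ligand and the low ones for the receptor, with the second CD4 array apart from its group. Ccl22 differed by 2.56 ± 0.31 and its receptor Ccr4 by -1.19 ± 0.31. Cxcl9 and Cxcl10 differed by 7.24 ± 0.16 and 1.98 ± 0.26, while their receptor Cxcr3 was not called against the T cell mean (0.20, limma, adjusted p = 0.542, and -0.09 without the second CD4 array) and is described with the shared genes.

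**Figure D4:**
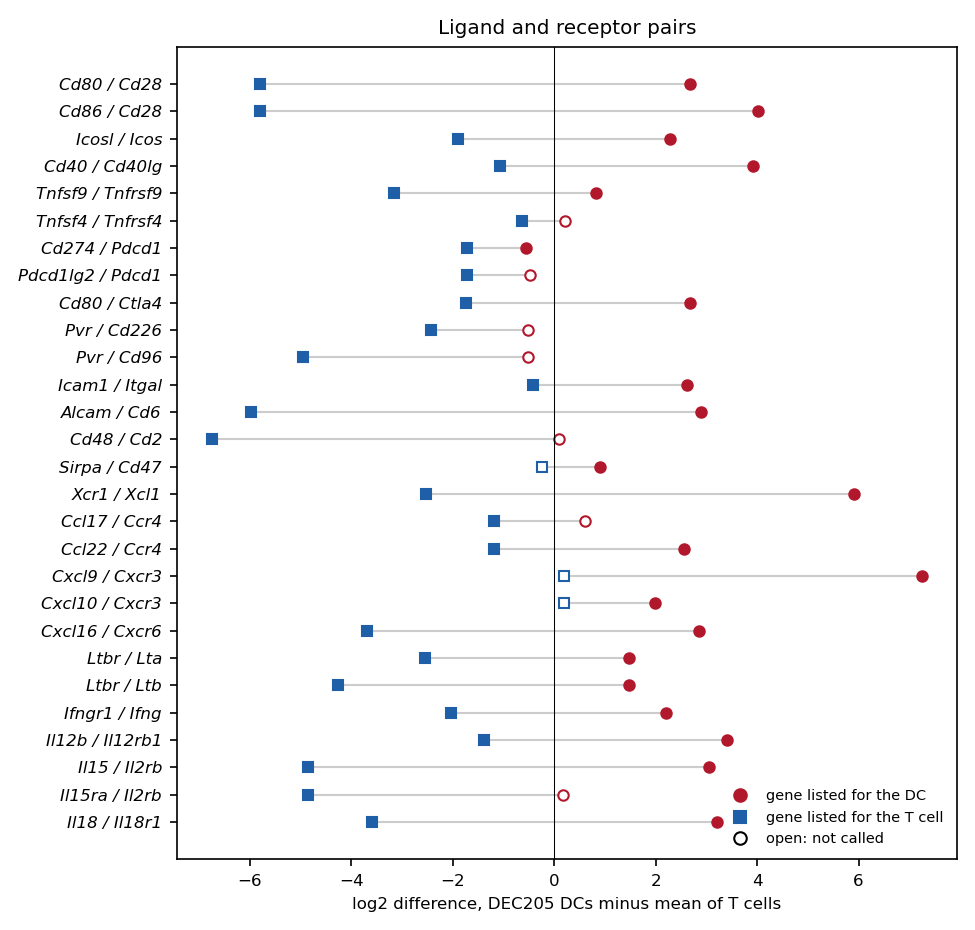
Log2 difference, DEC205 DCs minus the mean of T cells (horizontal axis), of both genes of 28 ligand and receptor pairs, with red circles for the gene listed for the DC, blue squares for the gene listed for the T cell, and open symbols where a gene was not called. In 17 pairs a filled circle lies right of 0 and a filled square left of it.

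Genes of cell division were higher in DEC205 DCs. Of 31 tested 24 were higher and 3 lower, with a median of 1.45. Mki67, present in cycling cells, gave 2381, 1992 and 4310 in DEC205 DCs and 82.7 to 403.4 (median 284.6) in T cells (3.26 ± 0.33, limma, adjusted p = 2.05e-08). Bub1b, of the spindle checkpoint, gave 632.6, 416.2 and 1004 and 14.3 to 35.2 (median 24.85), a difference of 3.24 ± 0.24. The third array was the highest of the DEC205 arrays in both. Cyclin D genes exchanged places. Ccnd1 gave 4118, 4276 and 4754 in DEC205 DCs and 259.8 to 409.4 (median 315.2) in T cells (3.56 ± 0.13), and Ccnd2 280.7, 389 and 411.4 and 8523 to 11310 (median 9111) (-4.55 ± 0.15, limma, adjusted p = 1.78e-16). The remaining lower members were Ccne1 (-0.58 ± 0.20) and Ccnd3 (-0.50 ± 0.11), and neither was called with median centring (-0.37 and -0.29). Ccne1 was also not called without the second DEC205 array (-0.46) or with probe sets averaged (-0.07). Its other probe set differed by 0.45 and was not called. Other probe sets of Ccnd3 differed by -2.43, which was called, and by -0.29, which was not.

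Of 15 glycolytic genes 8 were higher (53.3%, beside 21.7% of all genes) and 4 lower (26.7%, near the 27.5% of all genes). Their median was 0.35. Hexokinases differed by form: Hk2 gave 2406, 2482 and 2366 in DEC205 DCs and 50.6 to 378.4 (median 260.5) in T cells (3.29 ± 0.21, limma, adjusted p = 7.35e-12), and Hk1 1078, 935.9 and 913.9 and 1885 to 2870 (median 2302) (-1.19 ± 0.12). The glucose transporter Slc2a1 (-1.13 ± 0.11), Pfkm (-0.58 ± 0.14) and Ldhb (-0.41 ± 0.14) were the other lower members, and Ldhb was not called without the first DEC205 array (-0.27). Of 11 genes of the phagocyte oxidase and actin, 9 were higher and 1 lower, with a median of 1.33, and Cybb was not called (0.08 ± 0.26). Ncf1, a subunit of the phagocyte oxidase, gave 5023, 4734 and 5102 in DEC205 DCs and 148 to 919.2 (median 442.8) in T cells (3.40 ± 0.16), while Rac2 gave 5548, 4954 and 5594 and 19770 to 22840 (median 20800) (-1.95 ± 0.09, limma, adjusted p = 3.66e-14). Of 15 integrin genes 7 were higher (46.7%, beside 21.7% of all genes) and 4 lower (26.7%, near the 27.5% of all genes), with a median of 0.12. Itgb7, the chain that pairs with the product of Itgae, gave 3324, 2303 and 2650 in DEC205 DCs and 6710 to 9277 (median 7793) in T cells (-1.50 ± 0.16), and Itga6 and Itgb3 differed by -2.09 ± 0.14 and -2.77 ± 0.29.

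Genes of both cell kinds were listed in 2 ways, by an excess over other groups whatever the level, and by the signal level itself. By the first rule a gene was shared if DEC205 DCs exceeded both 33D1 DCs and B cells, and CD4 or CD8 T cells exceeded the same 2 groups, each by a log2 difference of at least 1 at an adjusted p under 0.05. This held for 46 genes, 28 with both T cell groups, 7 with CD4 and 11 with CD8 T cells alone. The rule sets no level, and 9 of the 46 were also high in both by the second rule below. Since the values chose the 46, their levels are given as a description. Against the T cell mean 21 of the 46 were higher in DEC205 DCs, 10 lower and 15 not called, and the number shared was 30 with the offset at the table median. Just inside the threshold lay Acvrl1, a receptor of the TGF-beta family, with a smallest difference of 1.02. Just outside lay Igf2r and Ubash3b at 0.98, among 111 genes with all 4 differences called and the smallest under 1.

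Cd8a led the list. It gave 15810, 16330 and 15330 in DEC205 DCs, 18360, 19310 and 19560 in CD8 T cells and 97.6, 108.3 and 40.6 in CD4 T cells, beside 129.4, 372.2 and 124.7 in 33D1 DCs and 106.3, 123.2 and 68.6 in B cells. The DEC205 arrays lay just below the CD8 T cell arrays, and the other groups were low. The difference from CD8 T cells was -0.27 ± 0.33 (limma, adjusted p = 0.545) and from CD4 T cells 6.97 ± 0.33. The beta chain had another pattern, since Cd8b1 gave 64.8, 85.9 and 62.2 in DEC205 DCs, beside 25160, 25390 and 24010 in CD8 T cells. Itgae, the integrin alpha chain CD103, gave 5193, 5821 and 3806 in DEC205 DCs, 5021, 4478 and 5987 in CD8 and 381.7, 120.5 and 381 in CD4 T cells, and means of 112.6 and 109.8 in 33D1 DCs and B cells. Its DEC205 and CD8 arrays overlapped, with a difference of -0.07 ± 0.27 (limma, adjusted p = 0.845). Ccr9, the receptor for the chemokine CCL25 of gut and thymus, gave 2354, 2111 and 2166 in DEC205 DCs, 371.9, 402.6 and 439.9 in CD4 and 5956, 4336 and 7718 in CD8 T cells. DEC205 DCs lay between the T cell groups, above CD4 by 2.32 ± 0.26 and below CD8 T cells (-1.38 ± 0.26, limma, adjusted p = 0.000157).

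Other leading shared genes were above 33D1 DCs and B cells in DEC205 DCs and in both T cell groups. Cxcr3 gave 3175, 3295 and 2611 in DEC205 DCs, 3167, 899.5 and 3034 in CD4 and 2887, 3510 and 3572 in CD8 T cells, with means of 251.2 in 33D1 DCs and 257.7 in B cells. The second CD4 array was the low one, and the difference from CD4 T cells, 0.54 ± 0.29 (limma, adjusted p = 0.152), was -0.04 without it and was called without the first (0.84) or the third (0.81). Sema4a, a semaphorin that acts on T cells, gave 3828, 4211 and 3902, 2854, 2815 and 3344 and 5125, 4988 and 4342 in the same order, against means of 347.9 and 83.53. Npc2, a lysosomal cholesterol carrier, gave 16670, 17790 and 18150, 18390, 19670 and 17970 and 16230, 18850 and 18290, against 5081 and 5011. Slco3a1, an organic anion transporter, was highest in DEC205 DCs, at 3058, 3001 and 2873, beside 741.8, 915.5 and 935.7 in CD4 and 1825, 1184 and 1368 in CD8 T cells, and means of 55.37 and 11.37. Ly75 also met the rule, with means of 169.3 in 33D1 DCs and 287 in B cells. Further down, Tlr12 was shared by the rule though its CD8 T cell signals of 71.5, 82.5 and 257.6 were far below those of DEC205 DCs (1762, 1300 and 1430). At the other end Atp1b3, a sodium pump chain, gave means of 5954 ± 354 in DEC205 DCs and 18730 ± 752 and 18710 ± 729 in CD4 and CD8 T cells.

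DCs of Flt3L mice gave the same measure for these genes. Their signals entered none of the 4 differences of the rule, but they entered the filter, the choice of probe set and the shared estimate of spread, and with the 15 wild-type arrays alone 47 genes were shared, among them all 46. DEC205 DCs of those mice were called higher than 33D1 DCs of those mice in 41 of the 46 (89.1%), beside 11.8% of all genes, and lower in 0, with a median difference of 1.72 beside -0.04. The 46 were chosen for an excess over 33D1 DCs in wild-type mice, so the 11.8% of all genes is no matching base. The share among all genes with that excess was not counted. Cd8a gave 11920, 7460 and 8475 in DEC205 and 131.8, 169.9 and 488.7 in 33D1 DCs (5.05 ± 0.33, limma, adjusted p = 1.3e-10). Itgae gave 3213, 1988 and 2224 and 101.7, 143.9 and 116.7, a difference of 3.87 ± 0.27. Ccr9 gave 1886, 1036 and 1491 and 206.9, 99.7 and 283.1, a difference of 2.67 ± 0.26. The DC groups did not overlap in these genes. Slco3a1 differed by 4.40 ± 0.21, Cxcr3 by 3.08 ± 0.29, Sema4a by 1.96 ± 0.20, Ly75 by 3.65 ± 0.22 and Npc2 by 1.30 ± 0.17. This bears on the DC side of the rule alone, since no T cells of such mice were among the arrays used here. The 5 genes not called were Pvr, Bivm, Gtf2ird1, Tent5c and Pdlim4, with differences from 0.35 to 1.14, named here after their values were seen.

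**Figure D5:**
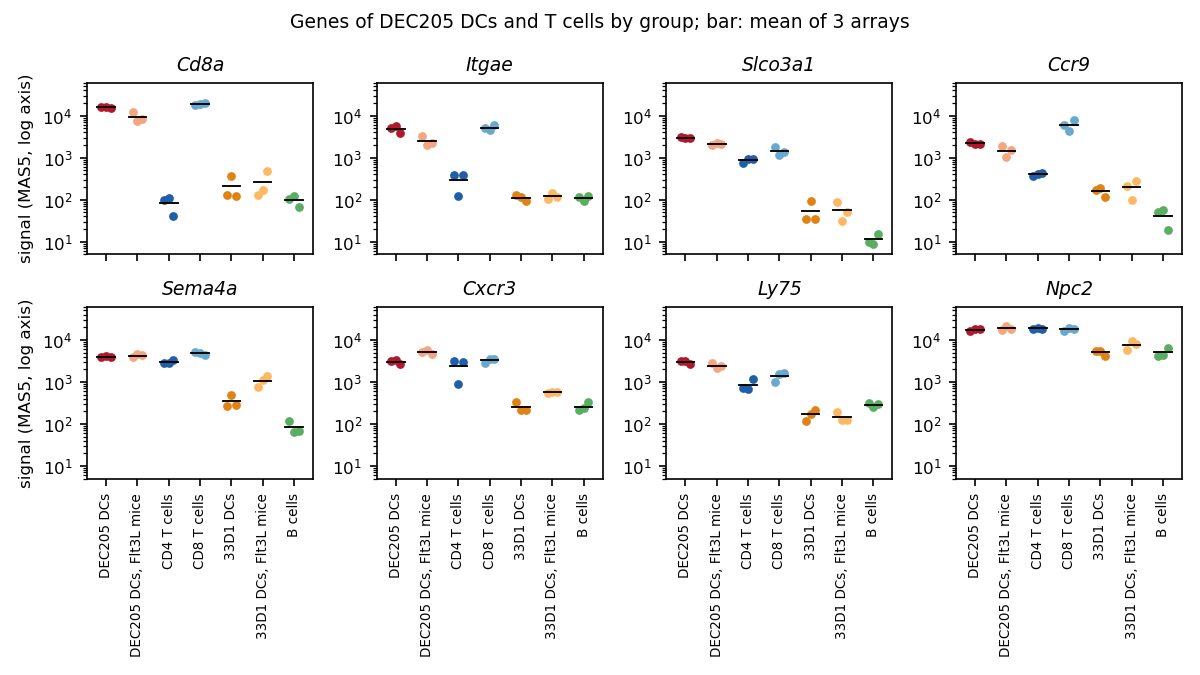
Signal of 8 shared genes (vertical axis, MAS5 signal, log scale) on each of 3 arrays in all 7 groups, with a black bar at the mean. Cd8a and Itgae are high in DEC205 DCs and CD8 T cells and low in CD4 T cells, and the other 6 genes are above 33D1 DCs and B cells of wild-type mice in DEC205 DCs and in both T cell groups, with Cxcr3 lowest on 1 CD4 array.

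By the second rule a gene was high in both if its mean signal was at or above the 90th percentile of genes in DEC205 DCs and also in CD4 or CD8 T cells, which took signals of at least 3120, 2859 and 2878. This held for 906 genes, of which 331 were higher in DEC205 DCs, 203 lower and 372 not called, and 9 were also shared by the first rule. The brightest were ribosomal proteins, the elongation factor Eef1a1, Actb and Tmsb4x, which every cell uses. Among the 906 were 35 genes with Rpl or Rps names, of which 33 were called lower in DEC205 DCs (median -0.47) on the deposited scale, 7 with quantile normalization (median -0.05) and 9 with median centring (median -0.26). Without the first DEC205 array 18 were called lower (median -0.37). Levels of different probe sets also depend on how each binds, so the rank is a description.

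CD4 and CD8 T cells were not interchangeable as a reference for a small part of the genes. Between them 217 genes were higher in CD8 and 216 in CD4 T cells, together 3.26% of all genes. Between DEC205 DCs and the T cell mean 49.2% were called. When DEC205 DCs were set against each T cell group, 15 of 13284 genes were called in opposite directions. For Zbtb7b DEC205 DCs lay between the T cell groups, at 977.6, 1060 and 730.5 in DEC205 DCs, 1402, 1388 and 1536 in CD4 and 345.3, 134.3 and 214 in CD8 T cells. Epsti1, an interferon-induced gene, gave 7560, 7456 and 8346, 4210, 4171 and 4245 and 13450, 12200 and 16170 in the same order. St8sia6, a sialyltransferase, gave 200, 228 and 454.4, 2784, 3495 and 3058 and 175, 221 and 139.6. In the first 2 of these genes every DEC205 array lay between the arrays of the T cell groups.

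Markers of other cell kinds were read for what a sort could carry over. Of 13 markers of B cells, 3 were called higher, Ms4a1, Cd22 (0.81 ± 0.24) and Fcrla (2.24 ± 0.22), and 3 called lower, Cd79b (-1.25 ± 0.23), Blk (-1.11 ± 0.33) and Pou2af1 (-2.80 ± 0.18). The share of 23.1% in each direction is near the 21.7% and 27.5% of all genes. Cd22 and Blk were not called without the third DEC205 array (0.63 and -0.81), nor Blk without the first (-0.93). The number lower was 5 without the second DEC205 or second CD4 array and 6 without the third CD8 array. Their summed signal was 4353 to 4657 on DEC205 arrays, 1707 to 4687 on T cell arrays and 176900 to 189300 on B cell arrays. Ms4a1, which encodes CD20, gave 2198, 1816 and 2345 in DEC205 DCs and 86.9 to 331 (median 293.5) in T cells (2.98 ± 0.25, limma, adjusted p = 1.39e-09). Of 10 macrophage and monocyte markers 7 were higher, 4 without the third DEC205 array, and summed signals were 9456 to 13650 on DEC205, 1531 to 3048 on T cell and 13320 to 19270 on 33D1 arrays. Lyz2, lysozyme, led these at 7215, 5846 and 7606 against 79.2 to 406.2 (median 238.8) (4.61 ± 0.34). Of 6 neutrophil markers 2 were higher (33.3%, beside 21.7% of all genes), S100a8 (1.57 ± 0.52) and S100a9 (1.54 ± 0.48), and 0 without the third DEC205 array. S100a8 gave 182.3, 179.7 and 1018 on the 3 arrays. Without the third the differences were 0.83 and 0.78, and without the second S100a9 differed by 2.14. Of 4 NK cell markers Klrk1 was higher, at 2877, 2690 and 3010 against 83.8 to 906.1 (median 601.3) (2.54 ± 0.29), while Prf1 and Gzma were lower (-2.71 ± 0.25 and -1.57 ± 0.25). These shares of 25% and 50% stand beside 21.7% and 27.5% of all genes. Of 8 markers of plasmacytoid DCs Tcf4 was higher (1.96 ± 0.14) and Pacsin1 lower (-2.06 ± 0.15), 12.5% each, beside 21.7% and 27.5% of all genes. In this list 2 were lower when any of 5 arrays was left out. Of 5 erythroid and platelet markers Car2 was lower (-0.56 ± 0.18, 20%, beside 27.5%), with 0 lower without the first and 2 without the second DEC205 array. Summed signals were 2490 to 2906 on DEC205 and 3546 to 4342 on T cell arrays for the former and 850.9 to 1291 and 924.7 to 1668 for the latter. The part of such cells in the differences was not tested.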

How the data were processed

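RNA of 21 samples of 7 groups was hybridised to 1 Affymetrix mouse array each, 5 ug of total RNA per array per the labels' protocols. The deposited values are linear probe set intensities made by the authors with MAS5 in GCOS, per the submitters' processing notes, and each array has a 2% trimmed mean of 500. Software versions and a genome build are not stated in the labels, and the number of arrays limits the precision. Probe sets were named from the platform annotation: 34945 of 45101 have 1 gene symbol, 932 several and 9160 none, and 64 are controls. Of those with 1 symbol, 34741 matched the RefSeq gene table by Entrez ID, which changed 0 symbols.

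Probe sets above 156.3, the table median, on at least 3 of 21 arrays were kept, and the probe set of highest mean stood for a gene. To each signal 48.6 was added, which is the 25th percentile of all deposited values, and log2 was taken. The addition understates differences of low genes. A mean per group was fitted to all 21 arrays with limma 3.58.1 in R 4.3.3, with eBayes and an intensity trend and 14 residual degrees of freedom, and p-values were adjusted by Benjamini-Hochberg over 13284 genes. An adjusted p under 0.05 made a call. Each ± after a difference is a standard error and after a mean signal an SD of 3 arrays. The labels do not say how pools were kept apart, so p-values measure the spread between arrays, which may be technical.

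Members and gene lists were chosen with earlier results of these data known. Genes were named by rule: the 20 highest and 20 lowest called differences without overlap of arrays, members of the lists of identity, receptor signalling, MHC and transcription factor genes and of the pairs, up to 6 of each other list by adjusted p, the 20 leading shared genes, the 15 leading genes high in both and 10 genes called in opposite directions. Genes outside it were named after their values were seen, among them list members that were not called or went against their list. Listed genes without a kept probe set were not tested here. Alternatives covered the offset, the filter, scaling, the arrays fitted, a replicate block, several probe sets, the variance trend and leaving out each of the 9 arrays. Replicate numbers did not pair the arrays.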

Additional observations from a re-analysis of the deposited data

Results flagged for a closer look

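DEC205 DCs differed from CD4 and from CD8 T cells in opposite directions in 15 of 13284 genes, each called against both. In each the T cell groups also differed from each other (limma, adjusted over all genes). That is the difference between both comparisons on the same arrays, so the choice of the 15 largely fixed it, and it is a description. The CD8 minus CD4 difference was largest for Cd4 (-6.27), followed by St8sia6 (-3.81) and Ccr9 (3.70). Bend4 (2.81), Fam241a (2.39), Cxxc5 (2.29), Racgap1 (2.12), Ehd1 (2.05) and Epsti1 (1.71) were higher in CD8 T cells. Zbtb7b (-2.48), Myo6 (-1.76), Cd200r1 (-1.62), Tmem64 (-1.48), Zbtb18 (-0.86) and Hif1a (-0.59) were higher in CD4 T cells. The difference between T cell groups was not called for Zbtb18 and Hif1a with median centring (adjusted p = 0.0568 and 0.258, limma).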

How the results depend on the processing

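Of the 20 alternatives, the fit of the 15 wild-type arrays alone gave counts and no named differences. The others gave 3981 values of 210 named differences. Of these, 3883 kept their direction and their side of the threshold, 66 were no longer called, 13 became called and 19 changed sign. Of 165 counts, 3 moved by over 1.5 times: 30 genes were shared with the offset at the table median, and median centring gave 2058 genes lower than the T cell mean and 1402 lower than both T cell groups. A larger offset shrinks every difference by construction, and median centring moved the all-gene median from -0.16 to 0.05. Without single arrays, 2582 to 2933 genes were higher and 3097 to 3926 lower, 44 to 49 were shared and 39 to 44 of these higher in DEC205 DCs of Flt3L mice. B2m was 0.03 with quantile normalization and Itgae against CD8 T cells 0.13 with median centring. Zeb2 was 0.15 with quantile normalization, 0.20 with median centring and 0.04 with probe sets averaged. Without single arrays Zeb2 ran from -0.20 to 0.20, H2-Eb2 from -0.25 to 0.30, Cybb from -0.39 to 0.37, Itgae against CD8 T cells from -0.20 to 0.10, Cxcr3 against CD4 T cells from -0.04 to 0.84 and Cxcr3 against the T cell mean from -0.09 to 0.35. Same-numbered arrays correlated in their deviations from the group means from -0.378 to 0.355 over 9 pairs, 2 of them over 0.1, and in 2 pairs the best match was the own number. With the replicate number as a block, 2883 genes were higher and 3589 lower, and 48 were shared. For the named genes the cause was not tested.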
